A study of Mesocricetus auratus with 6 samples.

Results

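Follistatin and the activin ligands and receptors were followed in the uterus of the pregnant golden hamster (Mesocricetus auratus) at places where a blastocyst had implanted and in the segments between them. The group held 10 genes, namely Fst, Fstl1, Fstl3, Inha, Inhba, Inhbb, Acvr1, Acvr1b, Acvr2a and Acvr2b, which were measured by 16 of the 22626 tested probe sets of an Affymetrix mouse array. The group was selected on the contrast described here, in which Fst ranked 1 by increase among the called probe sets with 1 gene symbol. Its members were then taken by symbol, with every probe set of each gene shown. Their differences between the sites are therefore given as a description, with no p-value. The samples were 3 arrays of embryo implantation sites and 3 arrays of interimplantation sites, which held no embryo. All were total RNA of whole uterine sites on day 5 of pregnancy, from untreated animals, and the RNA sets came from 3 animals. Values are log2 RMA signals, a scale on which a difference of 1 is a doubling. Because the probes are of mouse sequence, levels of different probe sets were not compared with each other as amounts of RNA.

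Activins are secreted dimers of inhibin beta subunits, and inhibins pair the alpha subunit with a beta subunit and oppose activin. An activin dimer binds a type II receptor, Acvr2a or Acvr2b, which then recruits and activates the type I receptor Acvr1b, and the signal passes through Smad2 and Smad3 with Smad4. Follistatin binds activin in the extracellular space and keeps it from its receptors. In the mouse, uterine Fst and the BMP type I receptor Acvr1 are both needed for normal decidualisation, the conversion of stroma around the attached embryo.

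At the implantation site the antagonist Fst was 3.28-fold higher. One probe set of the type II receptor Acvr2a was 1.85-fold lower, and one of the activin B subunit Inhbb was 1.43-fold lower. The activin A subunit Inhba and the receptor Acvr1b lay close to 0, with differences from −0.05 to −0.0053 on the log2 scale. In the limma fit over all probe sets (called at a Benjamini-Hochberg adjusted p under 0.05), 1 of the 16 member probe sets was called higher and 2 were called lower. Of all probe sets, 1.26% were called higher and 1.05% lower. Of the 16 differences 14 were negative and 2 positive, with a median of −0.09, beside a median of −0.02 over all probe sets. The groups did not overlap in 1 member probe set on the higher side and in 5 on the lower side, and in 7.62% and 11.7% of all probe sets on these sides. Nothing is read from these shares, since the group was chosen with the contrast known.

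**Figure D1:**
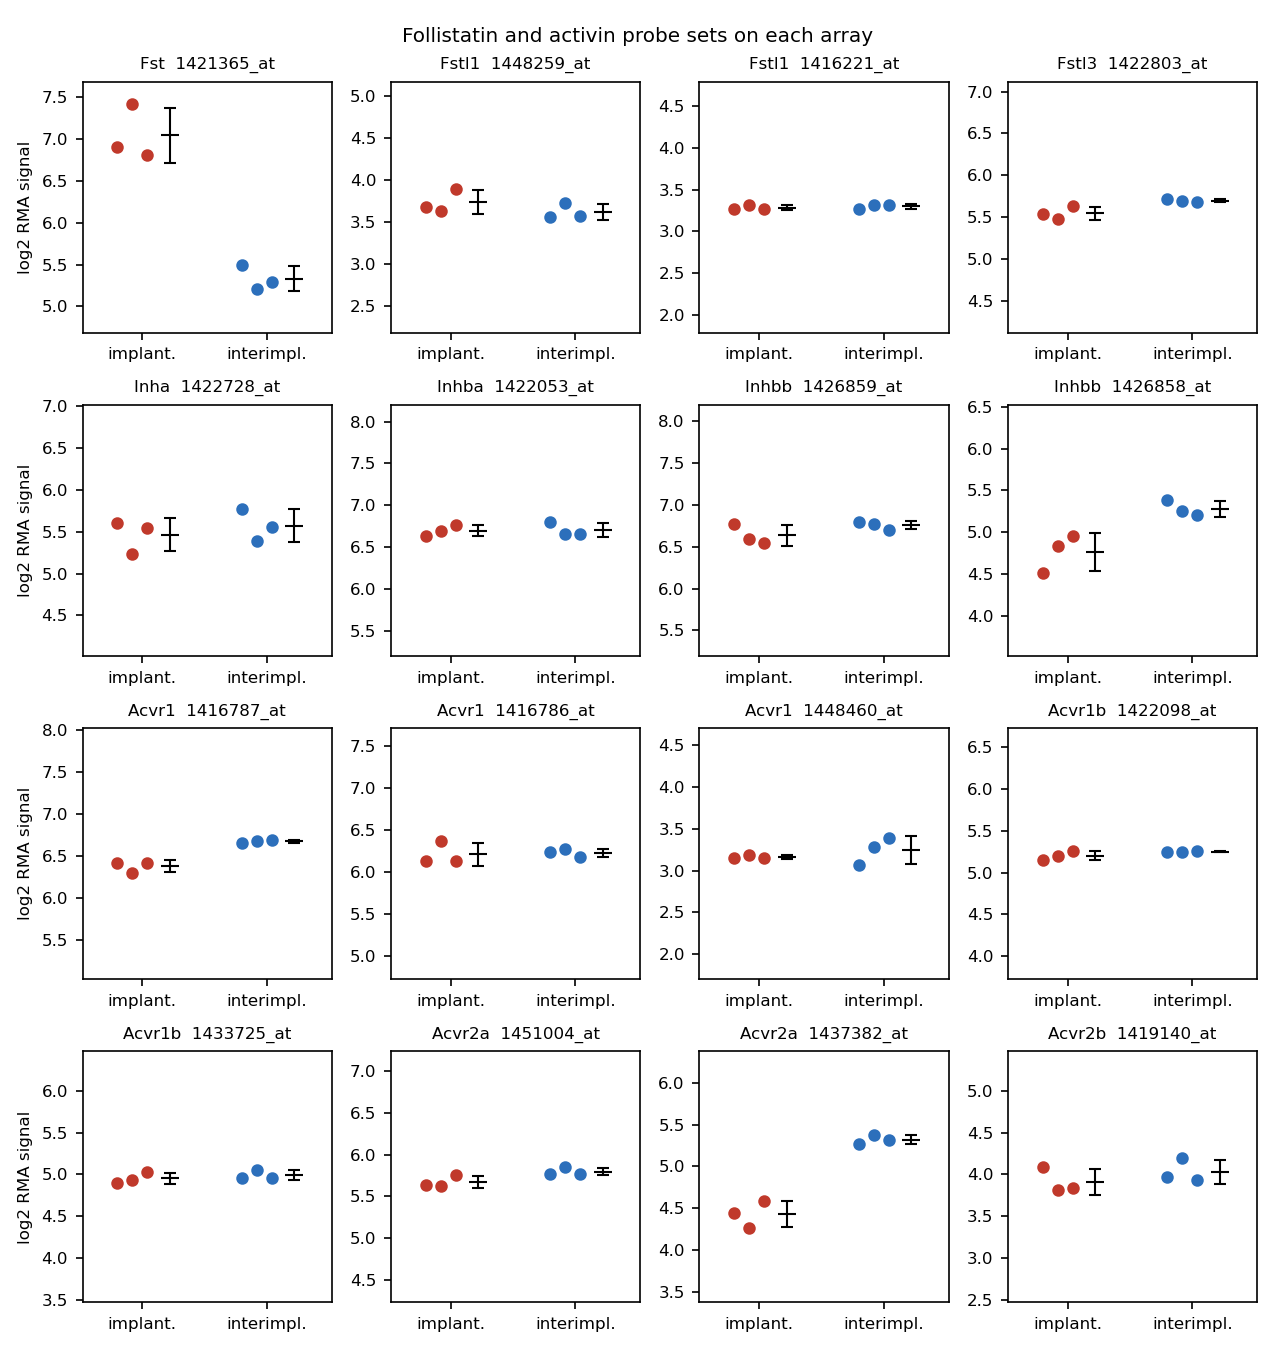
Log2 RMA signal of the 16 follistatin and activin probe sets on each array (points; implantation arrays left in red, interimplantation arrays right in blue), with the mean and SD of each group in black (n = 3); every panel spans the same number of log2 units. The Fst and Acvr2a 1437382_at groups lie far apart, at 7.04 and 5.33 for Fst and at 4.43 and 5.32 for Acvr2a 1437382_at, while the Inhba groups overlap.

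Among the antagonists, Fst (1421365_at) had signals of 6.91, 7.41 and 6.81 on implantation arrays 1, 2 and 3, against 5.49, 5.20 and 5.30 on interimplantation arrays 1, 2 and 3. The groups did not overlap, and 1.32 log2 units separated the lowest implantation array from the highest interimplantation array. Implantation array 2 was the highest of the 6. The mean was 7.04 ± 0.32 at the implantation site and 5.33 ± 0.15 between the sites (SD, n = 3 each), a difference of 1.71 (SE 0.14). Fst also varied more among arrays of the same group than most probe sets did: its residual SD of 0.25 stood at the 98.0th percentile of all probe sets. Fst had 1 probe set on the array with this symbol alone, so no other probe set of the gene could be set beside it.

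Fstl3, a second follistatin-type protein that binds activin, differed little. Its probe set (1422803_at) read 5.53, 5.47 and 5.63 at the implantation site and 5.71, 5.70 and 5.68 between the sites. Its groups were apart by a gap of only 0.047, and the difference was −0.15 (SE 0.08). Fstl1, a secreted glycoprotein with a follistatin domain that is not an established activin antagonist, had 2 probe sets tied to the same source sequence in the platform annotation. One (1448259_at) differed by 0.12 (SE 0.10) and the other (1416221_at) by −0.018 (SE 0.08), and both overlapped between the groups. Neither Fstl3 nor Fstl1 was called. Of the 4 antagonist probe sets, Fst alone was called.

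Of the ligand subunits, Inhba, which encodes the beta A subunit of activin A, was level across the sites. It read 6.64, 6.70 and 6.76 on the implantation arrays and 6.80, 6.65 and 6.66 on the interimplantation arrays. The groups overlapped, and the difference was −0.0053 (SE 0.08). Its residual SD of 0.072 stood at the 18.9th percentile of all probe sets, so its arrays lay close together.

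Inhbb, which encodes the beta B subunit of activin B, was measured by 2 probe sets that differed in size. Probe set 1426858_at read 4.51, 4.83 and 4.96 at the implantation site, against 5.38, 5.25 and 5.20 between the sites. All implantation arrays lay below all interimplantation arrays, and implantation array 1 was the lowest. The difference was −0.51 (SE 0.11) and was called. Without implantation array 1 it was −0.38 and no longer called. It also lost its call without implantation array 2 and without interimplantation array 1, 2 or 3 (differences from −0.55 to −0.46). The brighter probe set 1426859_at read 6.77, 6.59 and 6.54 at the implantation site and 6.79, 6.78 and 6.70 between the sites. These groups overlapped, and its difference of −0.12 (SE 0.09) was not called.

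Inha, which encodes the alpha subunit found only in inhibins, read 5.60, 5.24 and 5.54 on the implantation arrays and 5.78, 5.39 and 5.55 on the interimplantation arrays. The groups overlapped, with a difference of −0.11 (SE 0.12). Its residual SD of 0.20 stood at the 91.6th percentile of all probe sets. All 4 ligand probe sets had negative differences, from −0.51 to −0.0053, and 1 was called. The sign of Inha turned (0.0023) without implantation array 2, and that of Inhba without implantation array 1 (0.025) or interimplantation array 1 (0.042).

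Among the type II receptors, Acvr2a had the largest decrease of the group. Its probe set 1437382_at read 4.45, 4.27 and 4.58 on the implantation arrays, against 5.27, 5.37 and 5.32 on the interimplantation arrays. Again no arrays overlapped, with 0.69 log2 units between the highest implantation array and the lowest interimplantation array. The mean was 4.43 ± 0.16 at the implantation site and 5.32 ± 0.05 between the sites (SD, n = 3 each), a difference of −0.89 (SE 0.10), which was called. The brighter Acvr2a probe set 1451004_at read 5.64, 5.62 and 5.76 at the implantation site and 5.77, 5.85 and 5.77 between the sites. These groups were separated by only 0.0077, and the difference of −0.12 (SE 0.08) was not called.

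Acvr2b, the other activin type II receptor, averaged 3.91 ± 0.15 on the implantation arrays and 4.03 ± 0.15 on the interimplantation arrays (SD, n = 3 each). The groups overlapped, and the difference was −0.12 (SE 0.10). Both type II receptor genes thus had negative differences in all 3 of their probe sets, of which 1 was called.

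The type I receptor of activin, Acvr1b, was level by both of its probe sets. Probe set 1422098_at read 5.15, 5.20 and 5.26 at the implantation site and 5.24, 5.25 and 5.26 between the sites, a difference of −0.047 (SE 0.08). Probe set 1433725_at read 4.90, 4.93 and 5.03 at the implantation site and 4.96, 5.06 and 4.95 between the sites, a difference of −0.037 (SE 0.08). Both pairs of groups overlapped.

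Acvr1, a type I receptor used mainly by BMPs, had 3 probe sets that the platform annotation ties to the same mouse transcript. The brightest, 1416787_at, read 6.42, 6.30 and 6.42 at the implantation site, against 6.66, 6.68 and 6.69 between the sites. These groups did not overlap, with a gap of 0.24, but the difference of −0.30 (SE 0.08) was not called. The other 2 overlapped between the groups, with differences of −0.020 (SE 0.09) for 1416786_at and −0.080 (SE 0.09) for 1448460_at. None of the 5 type I receptor probe sets was called.

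**Figure D2:**
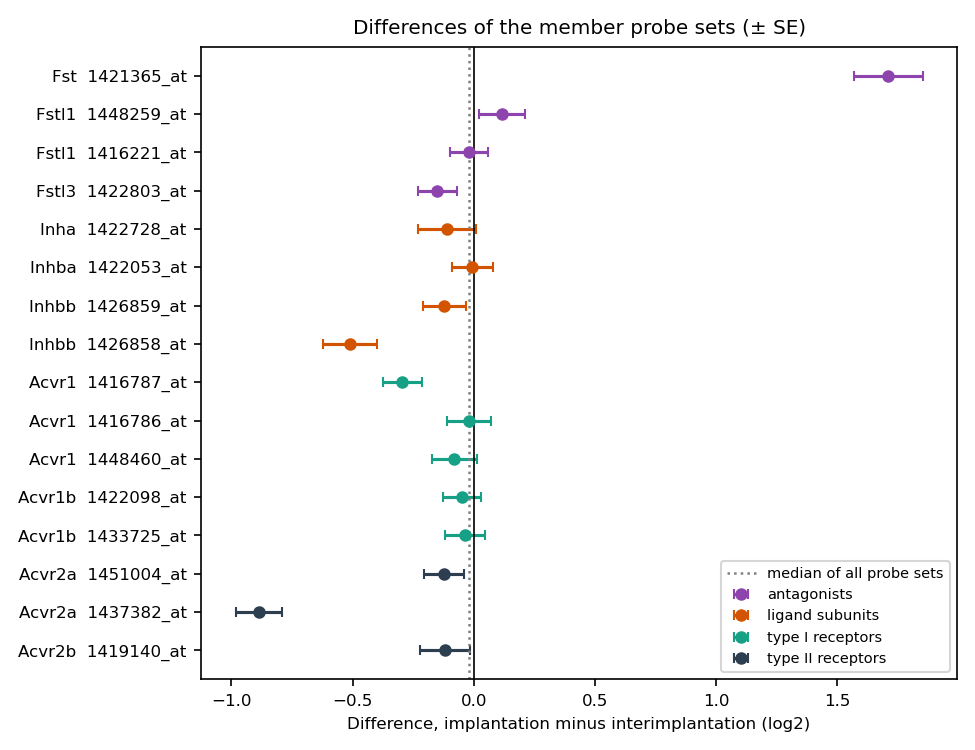
Difference in log2 signal (x axis, implantation minus interimplantation) of each member probe set (rows, ordered by role and coloured by it), with the SE of the limma fit as bars and the median of all probe sets as a dotted line at −0.02. Fst stands at 1.71, the Acvr2a and Inhbb probe sets with a call at −0.89 and −0.51, and the other 13 between −0.30 and 0.12.

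A call for one probe set of a gene and not for the other, as for Acvr2a and Inhbb, was common on these arrays. The uncalled probe sets of both genes also had negative differences, of −0.12 each. Of the 3057 genes with 2 probe sets, 118 had a call by at least 1 of them. In 13 of these 118 genes (11.0%) both probe sets were called the same way, in 105 only 1 was called, and in 0 were they called in opposite directions. All 16 member probe sets exceeded 2.68, the median of control probe sets for Bacillus transcripts that hamster RNA does not contain. By their mean over the 6 arrays, 5 probe sets were brighter than the brightest of these controls (5.79), namely those of Fst and Inhba, one of Inhbb and the 2 brighter ones of Acvr1. Fst was above it only on the implantation arrays (6.81 to 7.41), and its interimplantation arrays (5.20 to 5.49) were all below it. Both called probe sets with a decrease were below it on every array. Whether this bears on the sizes of the Fst, Acvr2a and Inhbb differences was not tested. Nor was it examined whether Bacillus transcripts had been added to these RNAs. If so, the control signals would hold more than background.

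The arrays were alike in their medians (4.55 to 4.57), and correlations across probe sets ran from 0.987 to 0.994 within groups and from 0.985 to 0.989 between them. The hybridisation control probe sets, which report labelled RNA added to the hybridisation mix, averaged 6.45 to 6.77 on the implantation arrays and 6.75 to 7.27 on the interimplantation arrays. With each array scaled to them, all probe sets had a median difference of 0.38, against −0.02 on the deposited values. Fst was then at 2.11, which is 1.73 above that median, and was still called. Acvr2a 1437382_at was at −0.49, which is 0.87 under that median, and Inhbb 1426858_at at −0.11, which is 0.49 under it, and neither was called. The fit with this scaling gave every member probe set the same SE of 0.22. Its calls thus followed the size of the shifted difference alone, not the spread of each probe set. The other 12 member probe sets with a negative difference turned positive with this scaling, at 0.10 to 0.39. Directions given here for the deposited values are thus relative to the middle of all probe sets on the array.

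**Figure D3:**
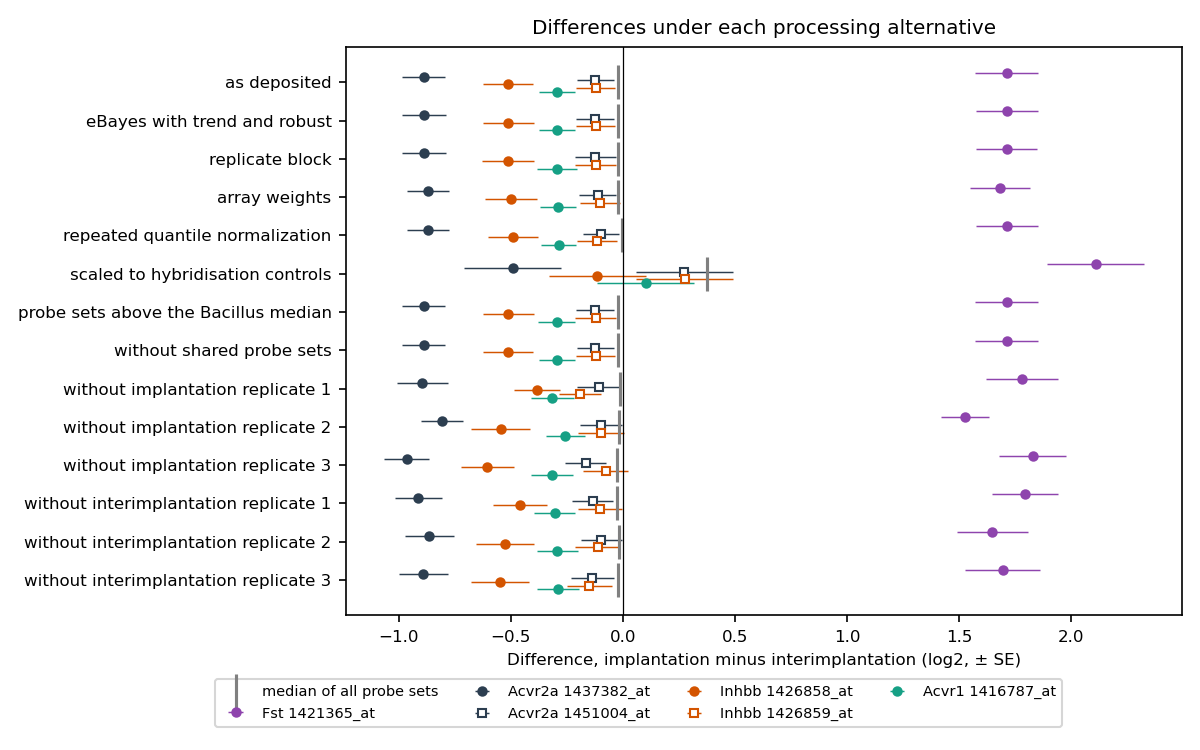
Difference in log2 signal (x axis, implantation minus interimplantation, with the SE as bars) of 6 member probe sets on the deposited values and under each of the 13 processing alternatives (rows), with the median of all probe sets as a grey mark. Fst runs from 1.53 to 2.11; scaling to the hybridisation controls moves every probe set upwards together with the median, to 0.38.

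The genes around the ligands and receptors were taken from lists made by function, of which 48 genes were measured by probe sets of 1 symbol, each represented by its brightest. In limma with Benjamini-Hochberg adjustment over all probe sets, 0 of the 48 rose, 1 fell and 47 did not pass. At an unadjusted p under 0.05, 2 genes had positive and 5 had negative differences. Among all 12393 genes by their brightest probe set, 1.36% were called higher and 1.18% lower. The median difference of the 48 genes was −0.057, beside −0.020 over all genes.

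The gene that fell was Tgfbi, an extracellular matrix protein that TGF-beta induces in many cells. It read 5.20, 5.60 and 5.70 on the implantation arrays, against 6.02, 6.03 and 6.01 on the interimplantation arrays. The groups did not overlap, and the difference was −0.52 (SE 0.12, limma adjusted p = 0.0414). The other 3 Tgfbi probe sets lay between −0.16 and 0.11, and none was called. The call was lost without implantation array 1 or 2 and without interimplantation array 2 or 3 (limma adjusted p from 0.0868 to 0.136).

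Of 7 measured transcripts known to be induced by activin or TGF-beta, 0 rose and 1 (Tgfbi) fell. Ccn2, a matricellular growth factor, was at −0.32 (limma adjusted p = 0.157), and the cell cycle inhibitor Cdkn2b at 0.08 (limma adjusted p = 0.777). The inhibitory Smad7, itself a target of the pathway, was at −0.051 (limma adjusted p = 0.915).

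Among Smads and their regulators, 0 of 11 measured genes passed. Smad3, a transducer of activin signals, was at 0.21 (limma adjusted p = 0.327), Smad2 at −0.10 (limma adjusted p = 0.673) and the shared partner Smad4 at 0.045 (limma adjusted p = 0.869). Foxh1, a DNA-binding partner of Smad2, was at −0.19 (limma adjusted p = 0.472). In this list 1 gene with a positive and 0 with a negative difference had an unadjusted p under 0.05.

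Of 11 other receptors and co-receptors, 0 passed. Acvr1c, a type I receptor for activin B and Nodal, was at 0.25 (limma adjusted p = 0.273). Cfc1, a co-receptor of Nodal, was at −0.21 (limma adjusted p = 0.250), and Tgfbr3, the inhibin co-receptor betaglycan, at 0.14 (limma adjusted p = 0.509). At an unadjusted p under 0.05, 1 of them was higher and 1 lower.

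None of the 6 other ligands passed, with Lefty1, an inhibitor of Nodal, at −0.16 (limma adjusted p = 0.496) and the liver activin subunit Inhbc at 0.068 (limma adjusted p = 0.797). None of the 4 convertases that cut ligand precursors passed either, with Pcsk6 at 0.15 (limma adjusted p = 0.453) and Furin at −0.14 (limma adjusted p = 0.620). In both lists 0 genes had an unadjusted p under 0.05.

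Of 11 other measured genes of proteins with follistatin domains 0 passed, and at an unadjusted p under 0.05 there were 0 higher and 2 lower. Sparcl1, a matricellular protein, was at −0.34 (limma adjusted p = 0.15) and the proteoglycan Spock1 at −0.30 (limma adjusted p = 0.120). Sparc itself was at 0.30 (limma adjusted p = 0.648), with interimplantation array 1 at 10.35 above all implantation arrays. It was called without that array (0.67) and with the hybridisation control scaling (0.69, at the common SE of 0.22 in that fit). The difference between Fst and these genes was not tested.

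**Figure D4:**
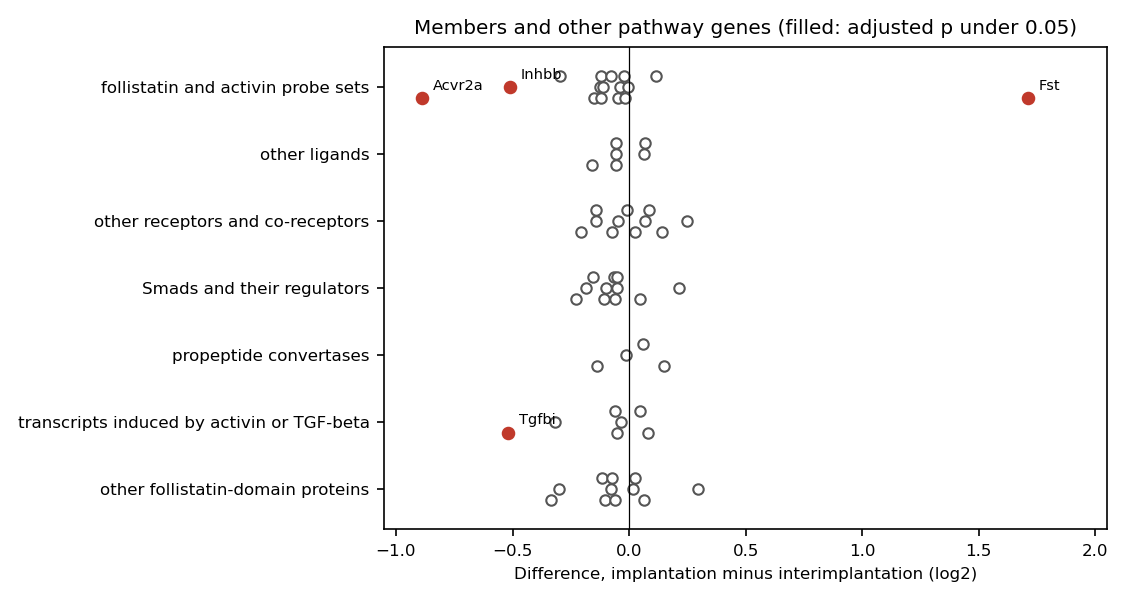
Difference in log2 signal (x axis, implantation minus interimplantation) of the 16 member probe sets (top row, 1 point per probe set) and of the 48 other pathway genes by list (1 point per gene, by its brightest probe set; Smad7 and Skil stand in 2 lists). Filled points passed an adjusted p under 0.05 in the limma fit; outside the top row this is Tgfbi alone, at −0.52.

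The probe sets whose levels over the 6 arrays were most like those of Fst belonged to Naa15, a subunit of the main N-terminal acetyltransferase (Pearson r = 0.9955), Akr1b10, an aldo-keto reductase (0.9945), and Uqcrfs1, the Rieske protein of the respiratory chain (0.9938). Zmynd19 (0.9924), the corepressor Trim28 (0.9921) and Sap30, of a histone deacetylase complex (0.9918), followed. These correlations are a description over 6 arrays that fall into the groups compared, so any probe set with a clean difference scores high. They leave out size: Naa15 differed by 1.00 and Akr1b10 by 0.11, beside 1.71 for Fst. The other 3 Naa15 probe sets correlated with Fst at 0.39 to 0.74, and the other one of Akr1b10 at −0.46.

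**Figure D5:**
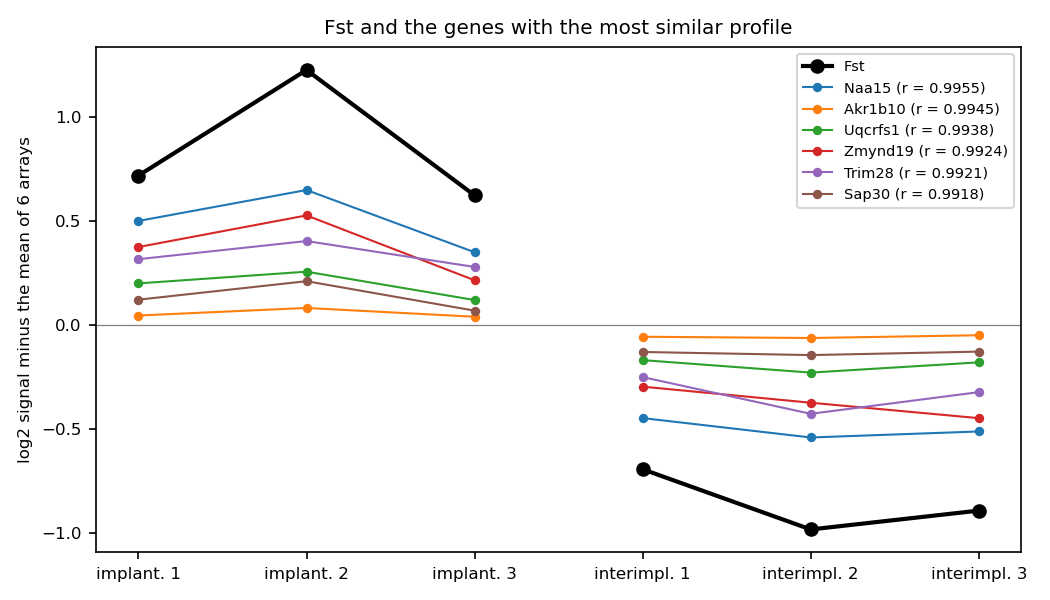
Log2 signal minus the mean of the 6 arrays (y axis) for Fst (black) and the 6 genes with the highest Pearson r with it, on each array (x axis; implantation arrays left, interimplantation arrays right; lines join arrays of a group only to guide the eye). The profiles share the separation of the groups, with differences from 0.11 for Akr1b10 to 1.71 for Fst.

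Markers of the cell types of the uterus moved between the same samples. In whole tissue, fewer cells of a type and less RNA per cell cannot be told apart. The uterine transcription factor genes Hoxa11 (−0.22) and Nr2f2 (−0.11) were measured at both sites without a call, and 0 of 9 genes of uterine identity passed. Of 10 decidual markers 2 rose, Gja1, a gap junction protein (1.04, limma adjusted p = 0.00249), and Wnt4, a WNT ligand of the stroma (0.63, limma adjusted p = 0.00633), while Cebpb was at 0.14. Among all genes by their brightest probe set, 1.36% were called higher and 1.18% lower. The Gja1 probe set is among those shared by several transcripts and was absent from the fit without them. Differences were positive for 8 of the 10 and negative for 2, Alpl (−0.15) and Prl8a2 (−0.065), with a median of 0.13. The positive ones include Prl3c1 (0.035) and Bmp2 (0.056), whose mean of 2.26 lay below the Bacillus control median of 2.68. The mean level of this list was 5.58 to 5.61 on the implantation arrays and 5.24 to 5.40 on the interimplantation arrays.

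Of 9 smooth muscle markers 2 fell, Actg2 (−1.74, limma adjusted p = 0.00621) and Tagln (−1.26, limma adjusted p = 0.00343). The other 7 were not called, and 2 of them were positive, Myh11 (0.059) and Des (0.13). The median difference of the list was −0.25. Its mean level, in which Actg2 and Tagln had by far the largest differences, was 5.41 to 5.67 at the implantation site and 5.91 to 6.18 between the sites. Of 13 epithelial markers 2 fell, Cldn7 (−0.78, limma adjusted p = 0.00868) and Sox17 (−0.53, limma adjusted p = 0.0467), and Cldn3 was at −0.30. The other 11 were not called, and 12 of the 13 differences were negative, with a median of −0.16. The mean level of the list was 5.02 to 5.11 at the implantation site and 5.25 to 5.37 between the sites. The Actg2, Sox17 and Cldn3 probe sets were also absent from the fit without shared probe sets. Each marker gene was represented by its brightest probe set alone. None passed of 9 stromal genes (Col3a1 −0.011, Vim −0.29), 9 endothelial genes (Flt1 0.067, Kdr −0.15) or 10 trophoblast and embryo genes (Hand1 0.0046, Ascl2 −0.21). None passed of 7 myeloid genes (Csf1r −0.015, Lyz2 0.018) or 3 erythroid genes (Epb42 0.046, Alas2 −0.35). At an unadjusted p under 0.05, these 5 lists held 1 gene with a positive and 5 with a negative difference, and uterine identity held 1 of each. The mean level of the trophoblast and embryo list was at most 4.56 at the implantation site and at least 4.60 between the sites. The groups did not overlap in the mean levels of the decidual, smooth muscle, epithelial and trophoblast lists. The same held for pathway lists with few or no calls. These were Smads and their regulators (5.30 to 5.34 against 5.38 to 5.39), transcripts induced by activin or TGF-beta, and other follistatin-domain proteins. Separate list means were thus not particular to cell type markers. The marker lists also share genes. Des stands in the decidual and smooth muscle lists, Krt7 (−0.22) in the epithelial and trophoblast lists, and Hand2 in the decidual and uterine identity lists. The part of these cell types in the differences of Fst, Acvr2a and Inhbb was not tested.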

How the data were processed

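Per the submitters' processing notes, the deposited values came from Partek 6.6 and RMA, and each is a log2 signal per probe set and array. The notes do not state the log base, which was taken as 2 from RMA's usual output and the range of values. RMA makes the arrays' distributions alike. Labels' protocols give Trizol extraction and biotin-labelled cRNA.

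Of 22690 probe sets, 64 controls were left out. The 22626 others were fitted in R 4.3.3 with limma 3.58.1 (lmFit, eBayes; group as the only term; two-sided; no filter on level), with Benjamini-Hochberg adjustment over all of them. Differences are implantation minus interimplantation with the SE of the fit. Named pathway genes are those called and the 2 with the smallest p per list, plus the Smads, Tgfbr3 and Sparc, which were added after their values were seen. Named marker genes are those called and the 2 brightest per list. The members, lists and alternatives were chosen with earlier results of these data known. All 10 member symbols were also symbols in RefSeq's hamster annotation (BCM_Maur_2.0); no genome or sequence was used. The fit was tested on simulated data. The number of arrays limits the precision. The p-values set a difference against the spread among these arrays, which eBayes moderates with that of all probe sets. They do not allow for arrays that share an animal.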

Additional observations from a re-analysis of the deposited data

How the results depend on the processing

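Fst was called higher under all 13 alternatives (1.53 to 2.11), Acvr2a 1437382_at was called under 12 and Inhbb 1426858_at under 7. The alternatives refit the same 6 arrays on which the group was chosen. Calls of members are thus a description of how the processing moves them, not an independent test. No other member probe set was called under any of them. The count of member probe sets called higher was 1 throughout. The count called lower was 0 with scaling to the hybridisation controls and 1 to 2 with single arrays left out, where the call lost was that of Inhbb. With the replicate number as a block, 294 probe sets were higher and 240 lower in all, against 284 and 238 without it, and the block changed no call of a member or pathway gene. Deviations of arrays of the same number correlated at −0.09, 0.071 and −0.028, and those of unlike numbers at −0.093 to 0.101. The numbers were not taken to pair the samples, and the main fit treated the 6 arrays as independent. Which implantation and interimplantation arrays share an animal is not stated. These correlations cannot settle it. With RNA sets from 3 animals and 6 arrays, arrays of both site types would share animals. The SEs and p-values of the main fit do not allow for this.

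Over all probe sets, the calls numbered 752 higher and 13 lower with the control scaling, and 138 and 96 without probe sets shared by several transcripts. They numbered 117 to 329 higher and 88 to 401 lower with single arrays left out, and 360 higher and 363 lower with array weights. Pathway genes called lower numbered 0 with each gene's probe sets averaged, 0 with the control scaling and 0 to 1 with single arrays left out. Pathway genes called higher numbered 1 (Sparc) with the control scaling and 0 to 1 with single arrays left out.

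The control scaling raises all differences alike. It turned Lefty1 to 0.24, Cfc1 to 0.19, Foxh1 to 0.21, Furin to 0.26, Ccn2 to 0.081, Smad2 to 0.30, Smad7 to 0.35, Spock1 to 0.097 and Sparcl1 to 0.060. Of the markers it turned Hoxa11 to 0.18, Nr2f2 to 0.29, Cldn3 to 0.092, Col3a1 to 0.39, Vim to 0.11, Kdr to 0.25, Ascl2 to 0.19, Csf1r to 0.38 and Alas2 to 0.045. It ended the calls of Tgfbi (−0.12), Cldn7 (−0.39) and Sox17 (−0.13), in a fit that gave each the same SE of 0.22. Another round of quantile normalization turned Col3a1 to 0.054 and the member Fstl1 1416221_at to 0.0071, and array weights turned Smad7 to 0.021. Leaving out single arrays gave ranges that cross 0 for the members Inhba (−0.037 to 0.042), Acvr1 1416786_at (−0.10 to 0.022) and Inha (−0.20 to 0.0023), and for Col3a1 (−0.070 to 0.052), Csf1r (−0.039 to 0.013), Epb42 (−0.0096 to 0.12), Hand1 (−0.034 to 0.051), Lyz2 (−0.033 to 0.097), Nr2f2 (−0.21 to 0.0015) and Smad7 (−0.15 to 0.13, the highest without interimplantation array 1). Sox17 lost its call when any one array other than implantation array 2 was left out, and Actg2 when eBayes used a trend and robust settings (adjusted p = 0.153). Of the 6 genes most like Fst, 2 were among the 50 most alike with the control scaling and 5 without shared probe sets. The causes of these changes were not tested.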
